A study of Mus musculus with 6 samples.

Results

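The genes described here supply N-glycosylation with its precursor and its activated sugars. They are 40 genes of the 43629 in the count table, chosen by name for their function and matched to the table by gene identifier. Of these, 11 encode subunits of the oligosaccharyltransferase, 15 assemble the lipid-linked oligosaccharide, 8 make or recycle UDP-N-acetylglucosamine (UDP-GlcNAc), and 6 carry activated sugars into the Golgi. The genes were compared between tumour-infiltrating T cells with high and with low surface binding of the lectin L-Pha. The T cells came from pooled subcutaneous B16-OVA tumours, a murine melanoma line engineered to express the antigen ovalbumin. The hosts were C57BL/6 mice, and tumours were harvested on day 14. By the study's design the sorted cells carried CD8 and the T cell receptor, and the extraction protocol names a sort on CD3 and the T cell receptor beta chain. Each group, L-Pha low and L-Pha high, had 3 libraries, all mice were of the same strain, and the labels name no treatment or engineered allele in the host. Whether libraries within a group stem from separate tumour pools is not stated in the labels. The spread behind the p-values is therefore that between libraries and may be technical.

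As background, N-glycosylation begins on the lipid dolichol phosphate in the membrane of the endoplasmic reticulum (ER), where glycosyltransferases add N-acetylglucosamine, mannose and glucose in a fixed order. The oligosaccharyltransferase then moves the finished oligosaccharide as a block onto asparagines of proteins entering the ER. In the Golgi, branching enzymes add further N-acetylglucosamine from UDP-GlcNAc, a sugar nucleotide made by the hexosamine pathway. L-Pha (Phaseolus leucoagglutinin) binds complex N-glycans with the branch added by Mgat5, and that enzyme depends on UDP-GlcNAc carried into the Golgi. In T cells, branched N-glycans are known to increase after activation.

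The libraries held 2610729 to 3521117 counts each, and the share of counts in the single gene Gm42418 ran from 9.59% to 24.96%, highest in L-Pha low 2. Levels are given as CPM (counts relative to the library total, scaled by the TMM method). QuantSeq reads start near the 3' end, so each transcript is read at about 1 position and CPM is not divided by length; priming can still differ between genes. Markers of T cells were present in all 6 libraries, with a sum over 14 T cell identity genes of 367 to 1099 CPM in L-Pha low and 496 to 871 CPM in L-Pha high. The 10 melanoma genes were all detected and summed to 10093 to 16436 CPM in L-Pha low and 11241 to 17221 CPM in L-Pha high, led by the pigment enzyme gene Dct. The 10 macrophage genes summed to 157 to 254 CPM in L-Pha low and 196 to 297 CPM in L-Pha high. Lower still were the sums of the 9 B and plasma cell genes (27.8 to 192 and 24.0 to 86.2 CPM), 9 stromal genes (44.5 to 87.1 and 33.7 to 99.1 CPM), 5 NK cell genes (9.69 to 28.2 and 21.0 to 33.1 CPM) and 6 neutrophil genes (5.21 to 35.6 and 1.81 to 12.8 CPM). The T cell receptor gene Trac was at 0 counts in 3 libraries and the neutrophil gene Ly6g in all 6. Most of the 40 genes are active in nearly all cell types, so RNA of tumour cells and of T cells cannot be told apart in their values. In bulk libraries, fewer cells of a type and less RNA per cell cannot be told apart either. The part of these other cells in the results was not tested.

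No gene of the set passed the test for a difference between the sorted groups. All 40 had counts, and 38 passed the filter on low counts and were tested. Of these, 17 had a higher and 21 a lower point value in L-Pha high, with a median log2 fold change of -0.03, beside -0.01 over all 11183 tested genes. With edgeR's quasi-likelihood test, 0 of 38 passed an adjusted p of 0.05, where 0.00894% of all tested genes (1 gene) passed, and every one of the 38 had an adjusted p of 1.00. Without adjustment, 0 of 38 had an edgeR p under 0.05, beside 3.78% of all tested genes. DESeq2 and limma-voom also called 0 of the 38, with 0 at an unadjusted p under 0.05, beside 0.268% and 0% of all genes called and 3.25% and 3.76% at that unadjusted p. Scaling by library totals alone moved the median of all genes to 0.10 and that of the 38 genes to 0.08. It turned their split to 23 higher and 15 lower, still with 0 called.

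**Figure D1:**
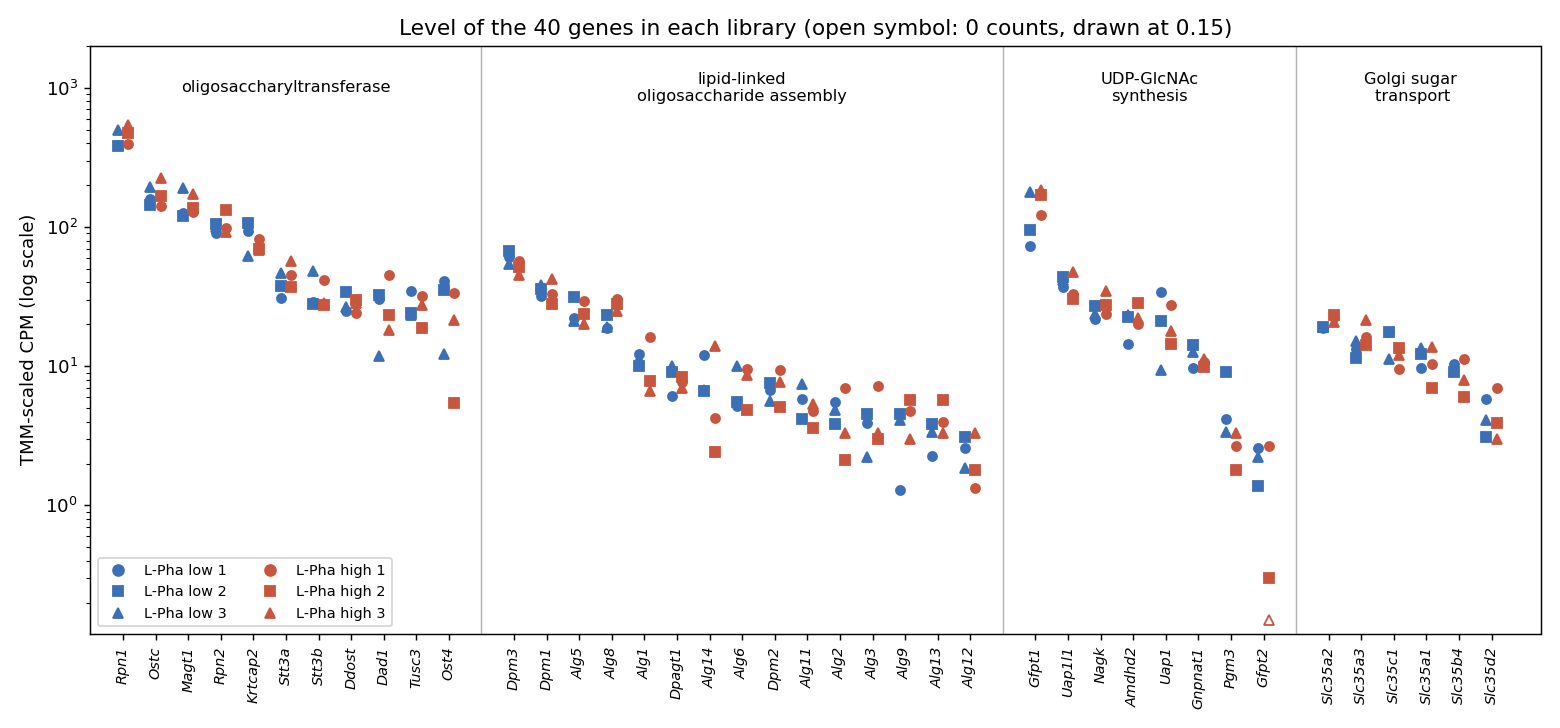
Level of each of the 40 genes in each of the 6 libraries, in TMM-scaled CPM on a log scale, ordered by role. Circles, squares and triangles stand for libraries 1, 2 and 3 in the colour of their group, and an open symbol marks a count of 0, which occurs for Gfpt2 in L-Pha high 3. Rpn1 is the most abundant gene, and the symbols of the groups overlap for all but 3 of the tested genes.

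The size of change that the data leave room for differed between genes. The 95% interval of the edgeR fold change lay within 2-fold in both directions for 22 of 38 genes (51.6% of all tested genes had such an interval), and it reached 2-fold or beyond for 16. Of those 16, 10 had a mean below 10 CPM. The median standard error (SE) of the log2 fold change was 0.32 over the 38 genes and 0.34 over all tested genes. Point values ran from -1.08 for Pgm3 to 0.47 for Alg13, and 36 of 38 lay within 0.5 of 0 on the log2 scale. The 3 L-Pha high libraries all lay above the 3 low libraries for Alg8 and Slc35a2 and all below them for Pgm3. These 3 of 38 are 7.89%, beside 8.41% of all tested genes (4.23% higher and 4.18% lower), so the share was near the background.

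**Figure D2:**
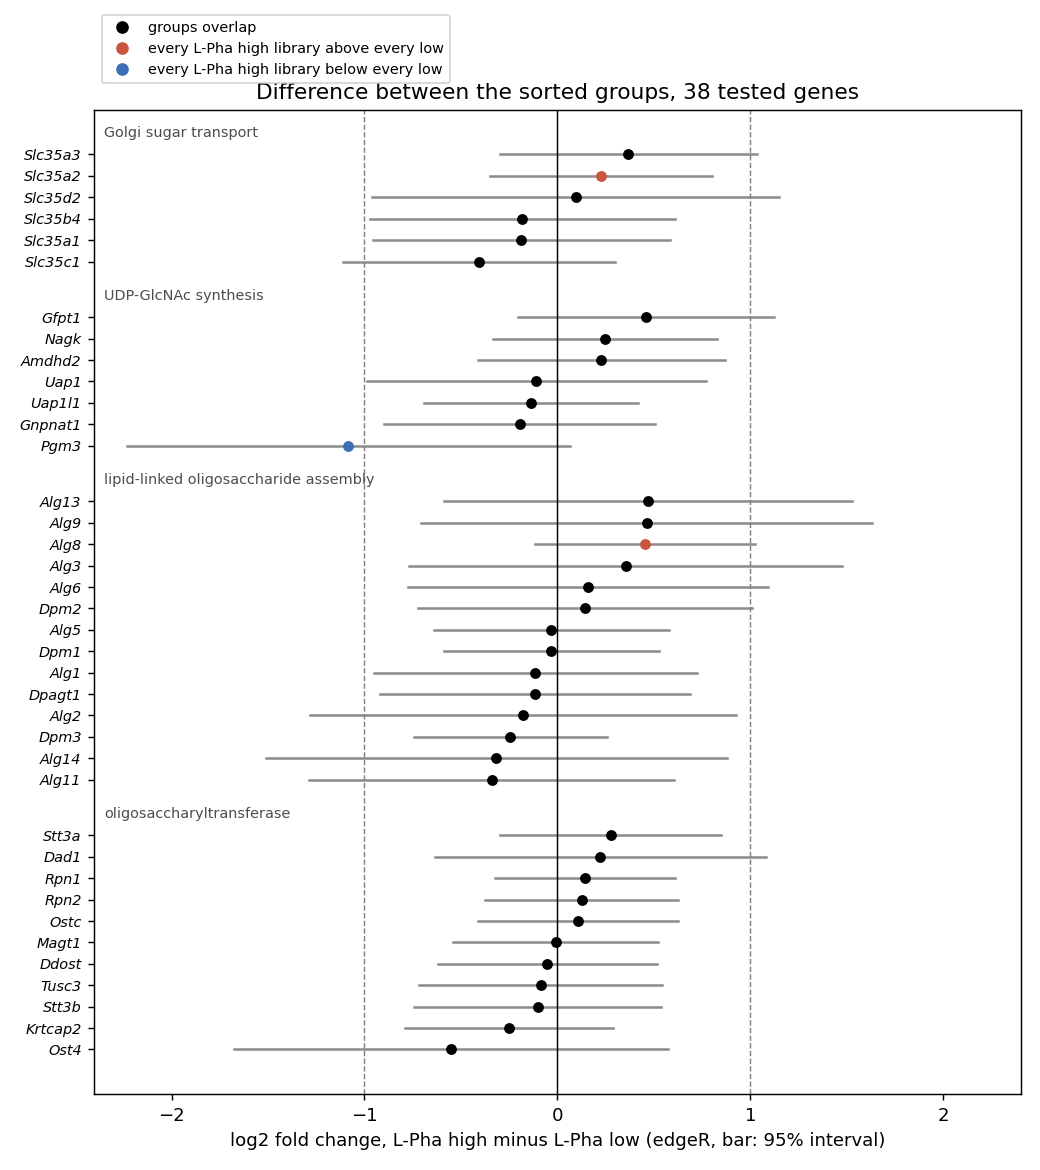
Log2 fold change of the 38 tested genes, L-Pha high minus L-Pha low, with its 95% interval from edgeR, by role. Dashed lines mark a 2-fold change, and colours mark the 3 genes whose groups do not overlap. Every interval includes 0, and the interval of Pgm3 reaches farthest to the left.

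The oligosaccharyltransferase genes were the most abundant of the 4 roles and differed little. Their summed level was 1052, 1051 and 1217 CPM across low libraries 1 to 3 and 1065, 1124 and 1276 CPM across high libraries 1 to 3. The ranges of the groups overlapped. All 11 genes were tested, 5 with a higher and 6 with a lower point value, and their median log2 fold change was -0.01. For 9 of the 11, the 95% interval lay within 2-fold in both directions, the exceptions being Dad1 and Ost4. Rpn1 (ENSMUSG00000030062, chromosome 6, 88084473 to 88105304, GRCm38), which encodes ribophorin I, a subunit shared by both forms of the enzyme, was the highest of the 40 genes. Rpn1 stood at 390, 381 and 500 CPM across low libraries 1 to 3 and at 393, 474 and 537 CPM across high libraries 1 to 3. The highest low library lay above 2 of the 3 high libraries. The means were 424 ± 66.3 and 468 ± 72.1 CPM (SD, n = 3 each), and the log2 fold change in edgeR was 0.14 (SE 0.22, 95% interval -0.33 to 0.61).

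The catalytic subunits come as a pair of paralogues, Stt3a, which acts while a protein is being translocated, and Stt3b, which can also act on sites that Stt3a missed. Stt3a (chromosome 9, 36729344 to 36767679) was at 30.7, 37.9 and 47.0 CPM across low libraries 1 to 3 and at 45.5, 37.4 and 56.97 CPM across high libraries 1 to 3. Stt3b was at 28.8, 27.8 and 48.5 CPM in the low libraries and at 41.8, 27.4 and 28.3 CPM in the high libraries, in the same order. Both pairs of groups overlapped, and L-Pha low 3 alone set the higher mean of Stt3b in L-Pha low. The edgeR log2 fold change was 0.28 for Stt3a (SE 0.27, 95% interval -0.30 to 0.85) and -0.10 for Stt3b (SE 0.30, 95% interval -0.74 to 0.54). That of Stt3b turned to 0.21 when L-Pha low 3 was left out.

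Magt1 and Tusc3 encode the alternative oxidoreductase subunits of the Stt3b form, and loss of MAGT1 in humans causes an immune deficiency. Magt1 (chromosome X, 105968084 to 106011906) was at 127, 121 and 192 CPM across low libraries 1 to 3 and at 129, 136 and 172 CPM across high libraries 1 to 3. Tusc3 was at 34.6, 24.3 and 23.5 CPM in the low libraries and at 31.7, 18.7 and 27.3 CPM in the high libraries. In both groups the third library was highest for Magt1 and the first for Tusc3. The group means of Magt1 were nearly equal, 147 ± 39.5 and 146 ± 23.1 CPM (SD, n = 3 each), with a log2 fold change of -0.01 (SE 0.25, 95% interval -0.54 to 0.52), whose sign turned with the scaling (0.08 with library totals alone). Tusc3 had a log2 fold change of -0.09 (SE 0.29, 95% interval -0.72 to 0.54), which was 0.03 with library totals alone.

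Ost4, the smallest subunit of the complex, had the smallest p of this role and the widest spread of all tested members. Ost4 (ENSMUSG00000038803, chromosome 5, 30905885 to 30907788) was at 40.8, 35.4 and 12.3 CPM across low libraries 1 to 3 and at 33.6, 5.42 and 21.3 CPM across high libraries 1 to 3. The ranges of the groups overlapped widely, and the highest library was 7.52 times the lowest. Its log2 fold change was -0.55 (SE 0.52, 95% interval -1.67 to 0.57). It was -1.15 when high library 1 was left out and -0.11 when high library 2 was left out. Dad1, a subunit named for the cell death that follows its loss, also varied, from 11.9 to 32.6 CPM in L-Pha low and from 18.3 to 45.5 CPM in L-Pha high. It lies outside the rule for named genes and was chosen after its values were seen. Ost4 and Dad1 were each at their lowest low value in L-Pha low 3.

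The other subunits kept overlapping ranges. Rpn2, the ribophorin II gene, averaged 98.9 ± 7.75 CPM in L-Pha low and 108 ± 21.9 CPM in L-Pha high. Ddost, which encodes a structural subunit, averaged 28.6 ± 5.08 and 27.6 ± 3.21 CPM. Ostc and Krtcap2 encode subunits of the Stt3a form, and their point values went in opposite directions. Ostc averaged 166 ± 24.3 CPM in L-Pha low and 179 ± 43.8 CPM in L-Pha high, and Krtcap2 averaged 87.1 ± 22.8 and 73.2 ± 7.48 CPM (SD, n = 3 each). Their log2 fold changes were 0.11 (SE 0.24) and -0.25 (SE 0.25).

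The genes that build the lipid-linked oligosaccharide were expressed at low levels, and the interval was within 2-fold for 5 of the 14 tested. Their summed level was 197, 221 and 200 CPM across low libraries 1 to 3 and 226, 182 and 199 CPM across high libraries 1 to 3. The highest and the lowest sum were both in L-Pha high. Of the 14, 6 had a higher and 8 a lower point value, the median log2 fold change was -0.03, and the values ran from -0.34 for Alg11 to 0.47 for Alg13.

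Alg8, which adds the second glucose to the growing oligosaccharide in the ER lumen, was the member of this role with the smallest p. Alg8 (ENSMUSG00000035704, chromosome 7, 97371606 to 97392153) was at 18.8, 23.3 and 19.0 CPM across low libraries 1 to 3 and at 30.6, 28.0 and 25.0 CPM across high libraries 1 to 3. All high libraries lay above all low libraries. The means were 20.4 ± 2.53 and 27.9 ± 2.83 CPM (SD, n = 3 each), and the log2 fold change was 0.45 (SE 0.27, 95% interval -0.12 to 1.03). The adjusted p in edgeR was 1.00. Leaving out each library in turn gave 0.38 to 0.56. Alg6, which adds the first glucose, and Alg5, which makes the glucose donor, had point values of 0.16 (SE 0.43) and -0.03 (SE 0.28).

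Dpm1, Dpm2 and Dpm3 form the enzyme that makes dolichol phosphate mannose, the donor for mannoses added in the lumen. Dpm3, its membrane anchor, was the highest gene of this role, at 60.5, 67.7 and 54.1 CPM across low libraries 1 to 3 and at 56.7, 51.8 and 45.3 CPM across high libraries 1 to 3. L-Pha high 1 lay above L-Pha low 3, so the groups overlapped. Dpm3 had a log2 fold change of -0.24 (SE 0.23, 95% interval -0.74 to 0.26). Dpm1, the catalytic subunit, ranged from 32.0 to 38.4 CPM in L-Pha low and from 28.0 to 42.6 CPM in L-Pha high (log2 fold change -0.03, SE 0.26). Its exons overlap those of Gm20716 on the same strand, and reads were counted for both, so its value is uncertain as a separate gene. Dpm2, the regulatory subunit, averaged 6.68 ± 1.03 and 7.37 ± 2.12 CPM.

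The transferases of the early steps stayed near 10 CPM or below. Dpagt1, the enzyme of the committed first step, averaged 8.41 ± 2.03 CPM in L-Pha low and 7.72 ± 0.72 CPM in L-Pha high (log2 fold change -0.12, SE 0.37). Alg13 and Alg14 together form the enzyme that adds the second N-acetylglucosamine. Alg13 averaged 3.15 ± 0.798 and 4.35 ± 1.24 CPM, and Alg14 averaged 8.43 ± 3.07 and 6.89 ± 6.22 CPM, with log2 fold changes of 0.47 (SE 0.49) and -0.32 (SE 0.56). Alg14 lies outside the rule for named genes and was chosen because its value rested on a single library: it reached 13.99 CPM in L-Pha high 3 against 4.26 and 2.41 CPM in L-Pha high 1 and 2. Without L-Pha high 3 its log2 fold change was -1.32 (edgeR adjusted p = 1.00).

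The mannosyltransferases Alg1, Alg2 and Alg11 work on the cytosolic face of the ER and Alg3, Alg9 and Alg12 in its lumen. Their mean levels over the 6 libraries ran from 2.34 CPM for Alg12 to 10.7 CPM for Alg1. The log2 fold changes were -0.11 for Alg1 (SE 0.39), -0.18 for Alg2 (SE 0.51), -0.34 for Alg11 (SE 0.44), 0.35 for Alg3 (SE 0.52) and 0.46 for Alg9 (SE 0.54). Alg12 was not tested and had 8, 9 and 5 counts across low libraries 1 to 3 and 5, 6 and 10 counts across high libraries 1 to 3. The 95% intervals of Alg2, Alg3, Alg9 and Alg11 reached 2-fold and that of Alg1 did not.

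Among the 40 genes, those of UDP-GlcNAc synthesis included the lowest point value, that of Pgm3. Gfpt1 and its paralogue Gfpt2 encode glutamine:fructose-6-phosphate amidotransferase, the rate-limiting entry of the hexosamine pathway, and Pgm3 encodes the mutase of a later step. Gfpt1 is a known target of the ER stress factor XBP1, and the promoters of these 3 genes are shown because their transcripts were at very different levels. They are the 250 bases before the transcription start in RefSeq on GRCm38.p6, written 5′ to 3′ on the gene's strand, at chr6:87042596-87042845 (+) for Gfpt1, chr11:49793905-49794154 (+) for Gfpt2 and chr9:86571843-86572092 (-) for Pgm3. Capitals mark matches on either strand to GACGTG (the core bound by XBP1 and ATF6), CCAAT (the box bound by NF-Y), GGGCGG (the GC box bound by SP1) and CCGGAAG (an ETS site).
Gfpt1: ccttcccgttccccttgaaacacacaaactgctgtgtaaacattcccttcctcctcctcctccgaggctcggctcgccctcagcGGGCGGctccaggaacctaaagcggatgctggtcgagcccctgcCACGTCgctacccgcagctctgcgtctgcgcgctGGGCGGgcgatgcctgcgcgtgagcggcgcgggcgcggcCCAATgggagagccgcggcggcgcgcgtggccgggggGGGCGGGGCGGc
Gfpt2: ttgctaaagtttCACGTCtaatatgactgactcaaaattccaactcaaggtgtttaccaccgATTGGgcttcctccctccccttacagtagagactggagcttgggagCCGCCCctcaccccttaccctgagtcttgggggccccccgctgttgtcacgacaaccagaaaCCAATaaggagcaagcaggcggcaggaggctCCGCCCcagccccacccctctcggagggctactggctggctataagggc
Pgm3: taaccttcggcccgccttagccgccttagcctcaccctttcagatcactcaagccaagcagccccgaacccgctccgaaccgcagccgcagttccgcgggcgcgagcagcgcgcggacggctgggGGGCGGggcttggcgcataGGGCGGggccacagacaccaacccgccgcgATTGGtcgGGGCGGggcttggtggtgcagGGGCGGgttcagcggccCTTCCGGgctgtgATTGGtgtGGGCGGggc
GACGTG is present on the opposite strand from base -122 to -117 of Gfpt1 and from -238 to -233 of Gfpt2, and Pgm3 has no match in this window. The Gfpt1 and Pgm3 windows hold 32 and 28 CpG dinucleotides and that of Gfpt2 holds 8.

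Of the 40 genes, 32 had a promoter entry with 35 windows, and Tusc3, Ostc, Dpagt1, Alg2, Alg11, Gnpnat1, Uap1l1 and Slc35d2 had none. GACGTG was found in 5 of the 35 windows (14.3%), those of Dad1, Dpm2, Gfpt1, Gfpt2 and Slc35c1, beside 5.20% of all 32851 windows of the same length. CACGTG, the E-box, which overlaps GACGTG by the bases ACGTG, was in 3 of 35 (8.57%), beside 6.02% of all windows. The GC box was in 21 of 35 windows, beside 32.7% of all windows, CCAAT in 17 of 35 (48.6%), beside 33.8%, and the ETS site in 7 of 35 (20.0%), beside 6.91%. The full ER stress response element, CCAAT followed after 9 bases by CCACG, and so overlapping the CCAAT box, was in 1 of 35, that of Alg12, beside 0.113% of all windows. The member windows held a median of 15 CpG dinucleotides against 6 in all windows. The windows compared were not matched for CpG content, and every motif here but the CCAAT box holds a CG. The shares therefore cannot be read as enrichment of a motif. These matches describe the sequence only, and both strands were searched for each motif.

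**Figure D3:**
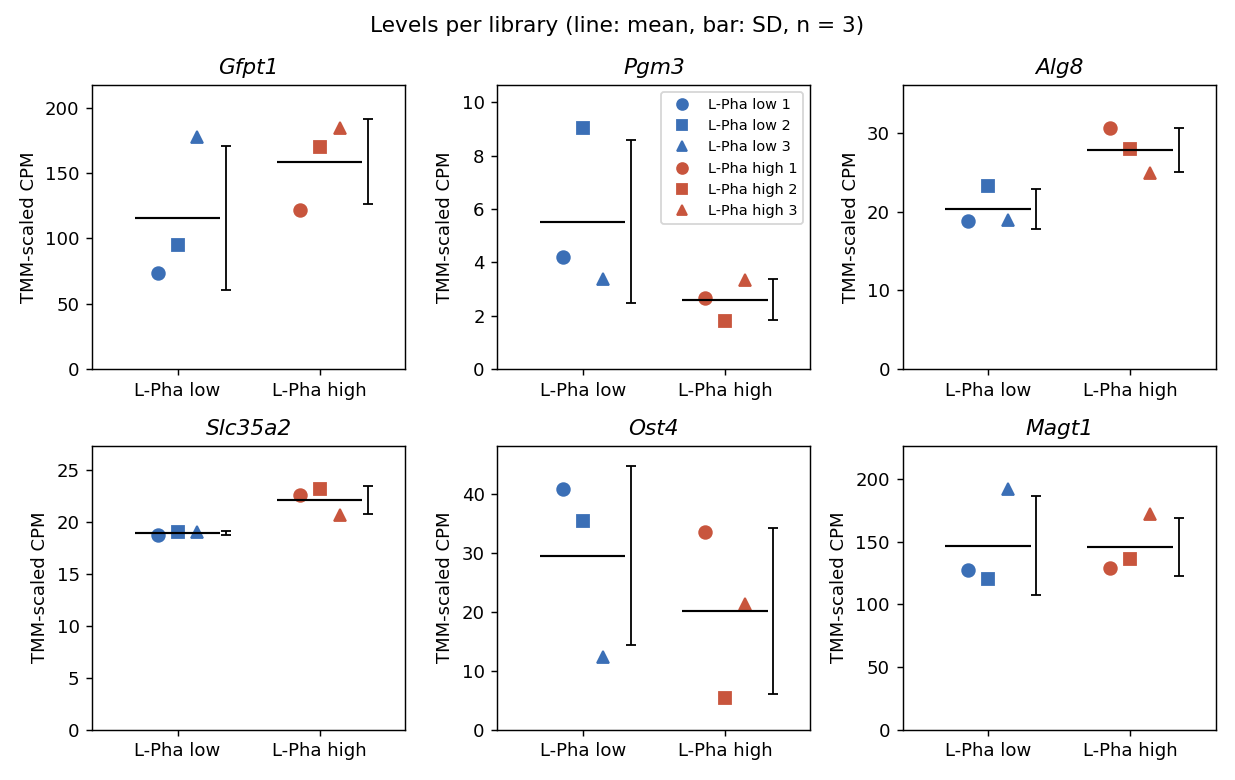
TMM-scaled CPM of 6 genes in each library, with a line at the mean and a bar for the SD (n = 3 per group). The groups are apart for Alg8 and Slc35a2, touch for Pgm3 (3.36 against 3.33 CPM) and overlap for Gfpt1, Ost4 and Magt1.

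Gfpt1 was the highest gene of UDP-GlcNAc synthesis in every library. Gfpt1 (ENSMUSG00000029992, chromosome 6, 87042846 to 87092197) was at 73.5, 94.8 and 178 CPM across low libraries 1 to 3 and at 122, 170 and 184 CPM across high libraries 1 to 3. L-Pha low 3 lay among the high libraries, and the other low libraries lay below all of them. The means were 115 ± 55.1 and 159 ± 32.7 CPM (SD, n = 3 each), and the log2 fold change was 0.46 (SE 0.31, 95% interval -0.20 to 1.12). The value depended on the low libraries: it was 0.92 with low 3 left out (edgeR adjusted p = 0.216) and 0.22 with low 1 left out. Gfpt2 was at or near the floor, with 8, 4 and 6 counts across low libraries 1 to 3 and 10, 1 and 0 counts across high libraries 1 to 3, and was not tested. The count of 0 allows up to 3 counts in that library.

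The libraries had the same order by Gfpt1 as by the summed melanoma genes, a sum led by Dct. Ordered by Gfpt1, the libraries ran from L-Pha low 1 through low 2, high 1, high 2 and low 3 to L-Pha high 3. The sum of the 10 melanoma genes in that order was 10093, 10615, 11241, 14134, 16436 and 17221 CPM. Dct gave most of that sum, and without it the order was not the same, with 2123, 2372, 2230, 2053, 2948 and 3092 CPM in those libraries. The other genes of the list differed among themselves, here in counts not scaled to the library total. Tyr had 189, 143, 191, 17, 62 and 85 counts and Tyrp1 had 1104, 875, 1254, 589, 985 and 879 counts in the same libraries. Slc24a5 came close to the order of Gfpt1, with 1152, 1036, 1620, 1968, 2528 and 3109 counts. Mitf also mostly rose, with 195, 383, 374, 530, 637 and 529 counts. The rest of the list did not keep that order. Pmel had 2445, 2798, 2982, 2299, 2070 and 2772 counts, and Mlana had 1009, 1007, 1282, 860, 967 and 1277. Sox10 had 98, 123, 150, 114, 129 and 97 counts, and Oca2 had 24, 28, 32, 15, 20 and 29. Slc45a2 had 343, 436, 486, 423, 508 and 505 counts. The T cell identity genes summed to 962, 1099, 751, 871, 367 and 496 CPM in the same libraries, so that the lowest sums fell in the libraries with the highest Gfpt1. The part of tumour cell RNA in the Gfpt1 values was not tested.

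**Figure D4:**
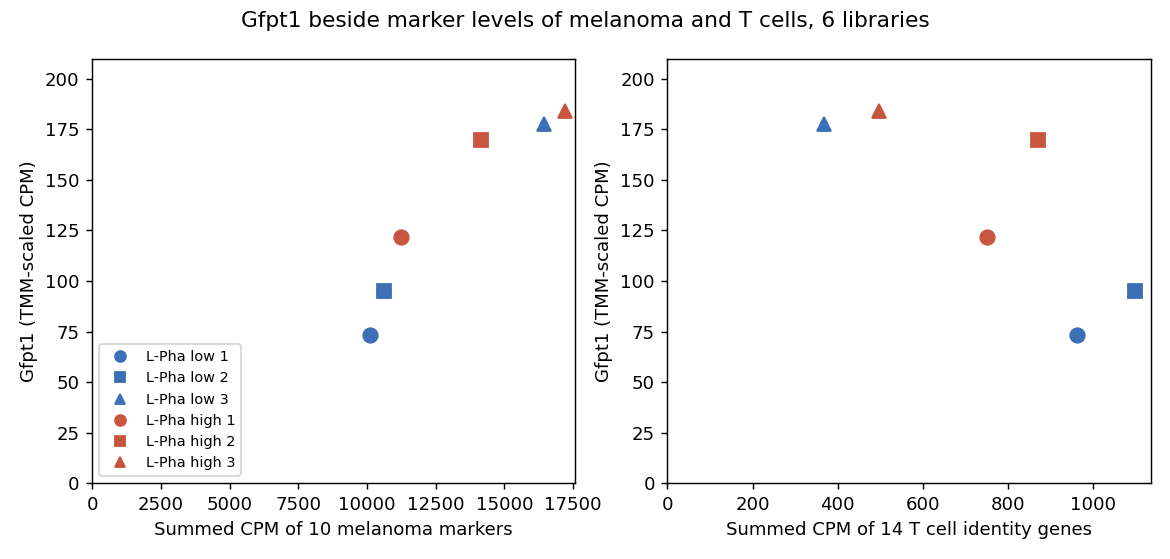
Gfpt1 level in the 6 libraries against the sum of the 10 melanoma genes and against the sum of the 14 T cell identity genes, all in TMM-scaled CPM. Each point is a library. Gfpt1 has the same order as the melanoma sum, of which Dct is the largest part, and L-Pha low 3 and L-Pha high 3 combine the highest Gfpt1 with the lowest T cell sums.

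Pgm3 had the smallest p of all 38 tested genes, on few counts. Pgm3 (ENSMUSG00000056131, chromosome 9, 86554377 to 86571842) had 13, 26 and 9 counts across low libraries 1 to 3 and 10, 6 and 10 counts across high libraries 1 to 3. In CPM this was 4.21, 9.03 and 3.36 across the low libraries against 2.66, 1.81 and 3.33 across the high libraries. The groups were thus apart by 3.36 against 3.33 CPM only, and with library totals alone they overlapped. Pgm3 had a log2 fold change of -1.08 (SE 0.54, 95% interval -2.23 to 0.06, adjusted p = 1.00 in edgeR). L-Pha low 2 held much of the difference, and without it the value was -0.55. Leaving out low library 1 or low library 3 brought its unadjusted p under 0.05, with the adjusted p still above it. Without low library 3, 10.9% of all tested genes had an unadjusted edgeR p under 0.05.

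Uap1 makes UDP-GlcNAc itself in the last step, and Uap1l1 is a related protein. Uap1 was at 34.3, 21.2 and 9.32 CPM across low libraries 1 to 3 and at 27.7, 14.5 and 18.0 CPM across high libraries 1 to 3. Uap1l1 was at 37.2, 43.4 and 41.4 CPM in the low libraries and at 33.3, 30.4 and 47.3 CPM in the high libraries. The high values of both genes lay on both sides of the low values or within them. The log2 fold change was -0.11 for Uap1 (SE 0.41, 95% interval -0.99 to 0.77) and -0.14 for Uap1l1 (SE 0.26, 95% interval -0.69 to 0.42). That of Uap1 was 0.02 with library totals alone, and leaving out a low library gave 0.39 (without low 1) to -0.46 (without low 3).

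The remaining genes of this role overlapped between the groups. Gnpnat1, which acetylates glucosamine-6-phosphate, averaged 12.2 ± 2.30 CPM in L-Pha low and 10.6 ± 0.692 CPM in L-Pha high (log2 fold change -0.20, SE 0.33). Nagk, the kinase that salvages N-acetylglucosamine, averaged 24.2 ± 2.72 and 28.8 ± 5.71 CPM (log2 fold change 0.25, SE 0.27). Amdhd2, a deacetylase that works against the pathway's forward flow, averaged 20.2 ± 4.91 and 23.6 ± 4.47 CPM (log2 fold change 0.23, SE 0.30). Over the 7 tested genes of the role, 3 point values were higher and 4 lower, and the median log2 fold change was -0.11. For 5 of the 7 the interval lay within 2-fold, the exceptions being Gfpt1 and Pgm3. The role's summed level was 198, 234 and 294 CPM across low libraries 1 to 3 and 242, 283 and 321 CPM across high libraries 1 to 3, and the ranges of the groups overlapped.

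The Golgi sugar transporters averaged 4.48 to 20.6 CPM over the 6 libraries, and 3 of the 6 had an interval within 2-fold. Their summed level was 75.4, 72.6 and 72.3 CPM across low libraries 1 to 3 and 77.0, 67.8 and 78.6 CPM across high libraries 1 to 3, the smallest ratio of highest to lowest library (1.16) among the 4 roles. The high libraries lay on both sides of the low libraries. Of the 6 genes, 3 had a higher and 3 a lower point value, and the median log2 fold change was -0.04.

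Slc35a3 is a transporter that carries UDP-GlcNAc, which the branching enzymes use, into the Golgi. Slc35a3 (chromosome 3, 116669469 to 116712831) was at 13.3, 11.5 and 15.3 CPM across low libraries 1 to 3 and at 16.2, 14.2 and 21.3 CPM across high libraries 1 to 3. L-Pha high 2 lay below L-Pha low 3, and the other high libraries lay above all low libraries. Slc35a3 had a log2 fold change of 0.37 (SE 0.31, 95% interval -0.30 to 1.03). Its exons overlap those of Mfsd14a, so its reads may be shared.

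Slc35a2, which carries UDP-galactose, varied least among the 38 tested genes. Slc35a2 (ENSMUSG00000031156, chromosome X, 7884041 to 7894492) was at 18.8, 19.1 and 19.0 CPM across low libraries 1 to 3 and at 22.6, 23.2 and 20.7 CPM across high libraries 1 to 3. All high libraries lay above all low libraries. The means were 19.0 ± 0.172 and 22.2 ± 1.34 CPM (SD, n = 3 each), and the log2 fold change was 0.23 (SE 0.27, 95% interval -0.35 to 0.80). edgeR's p uses a spread estimated across genes of similar level, which for Slc35a2 is larger than the spread seen between its own libraries.

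Slc35c1, which carries GDP-fucose, had the lowest point value and the smallest p of the transporters. Slc35c1 was at 17.5, 17.7 and 11.2 CPM across low libraries 1 to 3 and at 9.59, 13.6 and 11.99 CPM across high libraries 1 to 3. L-Pha low 3 lay among the high libraries. Its log2 fold change was -0.40 (SE 0.33, 95% interval -1.11 to 0.30). Slc35a1, the CMP-sialic acid transporter, Slc35b4 and Slc35d2 had log2 fold changes of -0.19 (SE 0.36), -0.18 (SE 0.37) and 0.09 (SE 0.49).

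Among the libraries, the 38 genes together showed no shift that followed the groups. L-Pha high 2 was the lowest library for 13 genes and L-Pha low 1 for 11, and L-Pha high 3 was the highest for 10. The median deviation of the 38 genes from their own means was -0.12, 0.05 and 0.02 on the log2 scale across low libraries 1 to 3 and 0.08, -0.14 and 0.02 across high libraries 1 to 3. The within-group SD of log2 levels had a median of 0.32 over the 38 genes and of 0.39 over all tested genes. It was largest for Ost4 (1.13), Alg14 (0.90), Dad1 (0.73) and Uap1 (0.73), and smallest for Slc35a2 (0.06), Alg8 (0.16) and Dpm3 (0.16). The highest library was less than 2 times the lowest for 24 of the 38 genes and at least 3 times the lowest for 8.

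**Figure D5:**
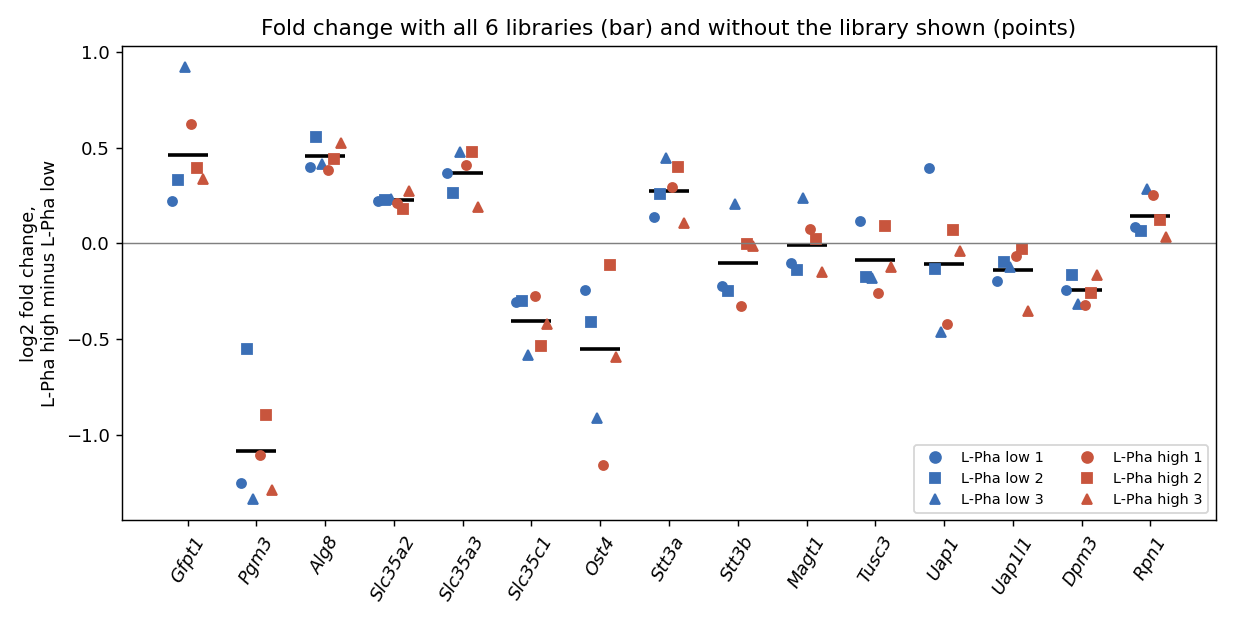
Log2 fold change, L-Pha high minus L-Pha low, of the named genes with all 6 libraries (bar) and with each library left out in turn (points, in the symbol of the library left out). The points of Gfpt1 run from 0.22 to 0.92 and those of Ost4 from -1.15 to -0.11, while those of Slc35a2 stay between 0.18 and 0.27.

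The wider pathway gave the same count of calls. Of 79 other genes in 5 lists, 73 were tested, 34 had a higher and 39 a lower point value, the median log2 fold change was -0.06, and edgeR, DESeq2 and limma-voom called 0. At an unadjusted p under 0.05 DESeq2 had 0 genes, limma-voom 1 and edgeR 1, against 8 in edgeR without L-Pha low 3, where 10.9% of all tested genes had such a p. The edgeR gene was Slc35e4, a transporter-like gene with no clear substrate. Slc35e4 was at 4.85, 6.95 and 3.36 CPM across low libraries 1 to 3 and at 2.66, 2.11 and 2.33 CPM across high libraries 1 to 3. All its high libraries lay below all low libraries, and its log2 fold change was -1.08 (SE 0.50, adjusted p = 1.00 in edgeR). Its list, 12 further genes of the nucleotide-sugar transporter family, had 11 tested genes of which 1 had a higher and 10 a lower point value. The list's median was -0.37, beside -0.01 over all genes, and -0.24 with library totals alone, beside 0.10 over all genes. In 4 of the 11 (36.4%) the groups did not overlap, all lower, and edgeR called 0 of 11. The share over all tested genes was 8.41% in either direction and 4.18% lower. Over all 5 lists the groups did not overlap for 8 of 73 genes (3 higher and 5 lower), which is 10.96%, beside 8.41% of all tested genes.

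In the other 4 lists edgeR likewise called 0 genes, and the groups did not overlap for Hk1, Gne and Ern1, all higher, and for Galt, lower. Hk1 and Gne lie outside the rule for named genes and are named here after their values were seen. Of 8 tested oligosaccharyltransferase and dolichol genes outside the 40, 4 point values were higher and 4 lower, with a median of 0.02. Of 25 tested genes of sugar-nucleotide synthesis, 11 were higher and 14 lower, with a median of -0.13. Galt, an enzyme of galactose use, had the smallest p of that list, at -0.88 (SE 0.49). Of 11 tested genes of the glucosidases and the calnexin cycle, which trim and fold new glycoproteins, 8 were higher and 3 lower, with a median of 0.14. Pdia3, the disulfide isomerase of that cycle, averaged 252 ± 81.5 CPM in L-Pha low and 377 ± 103 CPM in L-Pha high, a log2 fold change of 0.58 (SE 0.27, adjusted p = 1.00 in edgeR). Of 18 genes of the unfolded protein response, 10 were higher and 8 lower, with a median of 0.02, and the smallest p was that of the ER stress sensor Ern1, at 0.84 (SE 0.46).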

How the data were processed

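RNA of 6 libraries, 3 of L-Pha low and 3 of L-Pha high cells, was read by QuantSeq 3' sequencing. The authors deposited whole-number read counts per gene, made with featureCounts 1.5.0-p3 on Ensembl 78 gene models of GRCm38, sense strand, with multi-mapping reads counted at each alignment and a read assigned to every gene it overlaps, per the file headers. HISAT2 2.1.0 and cutadapt 1.7 are among the tools in the submitters' processing notes, which name the build hg19, unlike the header. A table of log2 values deposited by the authors, with 14293 symbols, served as 1 alternative. Its making is not given in the sources used here. Taken out of the log, its values lay on a straight line with the counts in every library (14081 genes, lowest r squared 0.999999997). It is thus a rescaled form of the same counts. Symbols came from GENCODE M21 and matched 97.3% of 43629 genes, and 21866 genes had a count.

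Counts were scaled by TMM. The 11183 genes passing edgeR's filterByExpr were tested with edgeR 4.0.16 (robust quasi-likelihood F test, group as the only term, two-sided, Benjamini-Hochberg, threshold 0.05) in R 4.3.3, and the step was tested on simulated data. SE and 95% intervals derive from the F statistic. Reads carried no molecular identifiers in the sources used here, so the limit of 3 counts for a count of 0 covers counting error only. Alternatives were DESeq2's size factors, library totals, no filter, at least 5 CPM in 3 libraries as the filter, the tools DESeq2 1.42.0 and limma 3.58.1 (voom, and on the log2 table), the labels' replicate number as a block, and each library left out in turn.

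The 40 members and all lists were chosen with earlier results of these data known. Values in every library are given for members with an unadjusted p under 0.05 or with groups that do not overlap, the 2 of smallest p and the 1 of highest level in each role, and 4 paralogue pairs; of other lists, the gene of smallest p, of which 1 is left out here. Exon overlaps with other genes on the same strand were looked for in the gene models of the count table, and Dpm1 and Slc35a3 had one. Copies of the last 300 bases of each member's transcripts were looked for in GENCODE M21 (97% identity over 75 bases or more). Only Dpm1 had such a copy with counts, in Gm20716. Promoters are RefSeq's, on GRCm38.p6.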

Additional observations from a re-analysis of the deposited data

How the results depend on the processing

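edgeR called 1 gene of all tested (0 higher, 1 lower) and 0 of the 40. With library totals alone and with limma-voom the count over all genes was 0, with no filter on low counts 47, with DESeq2 30, and without each library in turn 0 to 8, the 8 without L-Pha low 3. The count over the 40 genes was 0 under all 14 alternatives, and their smallest adjusted p was 0.216, for Gfpt1 without L-Pha low 3. The libraries share numbers in the labels, and same-numbered libraries deviated together with correlations of 0.368, 0.0825 and 0.467. Differently numbered pairs had correlations from -0.44 to 0.126. Each L-Pha high library correlated best with the L-Pha low library of its number, although L-Pha low 2 correlated better with L-Pha high 1 (0.126). The labels do not state a pairing, and the main test did not use one. With a replicate block on the numbers, 43 genes were called over all genes, and 1 of the 38 tested members had an unadjusted edgeR p under 0.05, beside 8.27% of all genes: Gfpt1 (log2 fold change 0.54, edgeR adjusted p = 0.450). Without each library in turn, 0 to 2 of the 38 had such a p: Pgm3 without L-Pha low 1 (3.68% of all genes), Gfpt1 and Pgm3 without L-Pha low 3 (10.9%), and Alg14 without L-Pha high 3 (2.87%). The median of the tested members moved from -0.03 to 0.0818 with library totals alone and ran from -0.0921 to 0.0731 without each library. The groups did not overlap for 3 genes, beside 8.41% of all tested genes. They did not overlap for 2 genes with the filter of 5 CPM or the log2 table and for 4 with library totals alone. Without each library this held for 4 to 11 genes, where fewer libraries have to separate. The share over all genes was not computed under these alternatives, so their counts cannot be set against a background. Of 17 named genes, 11 kept their sign throughout. Some were named for a small p or for separate groups in these same data, so this count does not describe all 38 tested genes. Magt1 turned to 0.0823 with library totals alone, 0.0107 with limma-voom, 0.0423 with the log2 table and 0.00991 with the block. Tusc3 turned to 0.0288 with library totals alone, and Uap1 to 0.0171, 0.0132 with limma-voom and 0.0601 with the log2 table. Without each library in turn, Magt1 ran from -0.15 to 0.24, Stt3b from -0.33 to 0.21, Tusc3 from -0.26 to 0.12, Uap1 from -0.46 to 0.39, Alg14 from -1.32 to 0.0752 and Dad1 from -0.26 to 0.46. The cause of these turns was not tested. Pgm3 has no value under the filter of 5 CPM.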
